A study of Arabidopsis thaliana with 3 samples.

Results

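APETALA3 (AP3), PISTILLATA (PI), LEAFY (LFY) and UNUSUAL FLORAL ORGANS (UFO) are the genes described here: the B-class floral homeotic pair and the regulator and co-regulator that switch the pair on. They were chosen by locus identifier, AT3G54340, AT5G20240, AT5G61850 and AT1G30950, and all 4 had a row among the 19777 genes of the authors' comparison table. Poly(A) RNA came from inflorescence meristems and flower buds of Arabidopsis thaliana grown in long days. The 3 libraries, each from an independent transgenic line, carried mutations in SEP1, SEP2 and SEP3 and expressed SEP3Δtet, a splice variant of SEPALLATA3 that the series title names SEP3.3. Buds were taken up to stages 10 to 11 from line 1, up to 10 to 12 from line 2 and up to 10 to 13 from line 3, per the labels. The authors compared the lines with the sep1 sep2 sep3 triple mutant, so loss of those 3 genes is shared by both genotypes. Bud stage and number of the triple mutant libraries, mutant alleles and the promoter of the transgene were not given in the sources used here.

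AP3 and PI encode MADS-domain transcription factors that bind DNA as an obligate heterodimer, maintain their own transcription and specify petals, and, with AGAMOUS (AG), stamens. SEPALLATA proteins such as SEP3 join the heterodimer in larger complexes that bind CArG boxes. Whether SEP3Δtet forms such complexes was not measured in these data. LFY is a plant-specific transcription factor that gives floral meristems their identity and activates AP1, AP3, PI and AG, and UFO is an F-box protein that acts with LFY to activate AP3.

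The genes lie on 3 of the nuclear chromosomes in the TAIR10.1 annotation from RefSeq. AP3 occupies chr3:20119140-20121314 on the minus strand in 7 exons. PI occupies chr5:6828904-6831515 on the plus strand, with 6 exons in its longer transcript, and LFY chr5:24844248-24846989 on the plus strand in 3 exons. UFO occupies chr1:11035992-11037508 on the plus strand as a single exon. No other annotated gene overlapped any of the 4 (0 overlaps).

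The letters that floral MADS proteins and LFY are known to recognise were sought in the 300 bases before the coding start of each gene. The CArG box (C, C, then a run of A or T, then G, G) was searched with up to 1 mismatch, and the core of LFY sites as CCANTG, on both strands. The matches are shown because AP3 and PI are bound by MADS complexes and by LFY, with the matched letters in capitals, 5′ to 3′ on the strand of the gene. 
AP3, bases 213 to 204 before the coding start: cagtttACATAAATGGaaaatt
AP3, bases 165 to 156 before the coding start: aacttaCCTTTCATGGattagg
AP3, bases 140 to 131 before the coding start: tactttCCATTTTTAGtaactc
PI, bases 106 to 101 before the coding start: ttaaaaCCAATGctcctc
PI, bases 32 to 23 before the coding start: gcaaacCCTAAAATTGagaaag
UFO, bases 121 to 112 before the coding start: tcttttCCTACAATGGgttttg

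AP3 held 3 CArG boxes with 1 mismatch and no CCANTG, whereas PI held 1 of each. In UFO the CArG match and a CCANTG match on the opposite strand share their last letters, and LFY held 0 matches of either kind. All of these matches fell between the annotated transcript start and the coding start, a distance of 227 bases in AP3, 299 in PI and 188 in UFO. No CArG box without a mismatch was found before any of the 4 coding starts (0), and the 300 bases before each annotated transcript start held 0 matches of either kind. Of 27443 windows of the same length before the coding starts of nuclear protein-coding genes, 36.9% held at least 1 CArG box with up to 1 mismatch, 1.96% held at least 3, and 23.6% held CCANTG. A match is a run of letters and does not show binding. The site sequences lie at chr3:20121285-20121306, chr3:20121237-20121258 and chr3:20121212-20121233 for AP3, at chr5:6829091-6829108 and chr5:6829165-6829186 for PI, and at chr1:11036053-11036074 for UFO, in TAIR10.1.

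**Figure D1:**
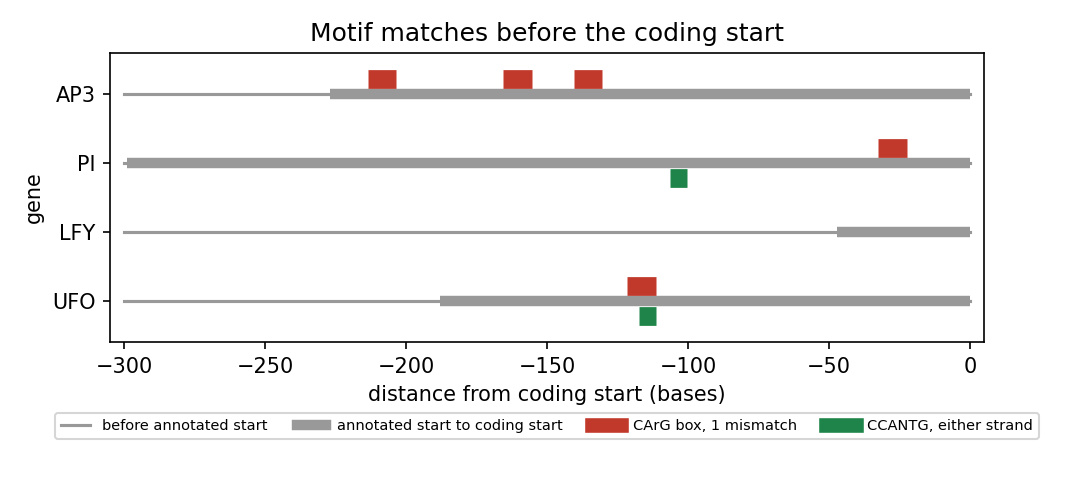
Matches in the 300 bases before the coding start of each gene, with the distance from the coding start in bases on the x axis and 1 row per gene. Thick grey bars run from the annotated transcript start to the coding start, red blocks are CArG boxes with 1 mismatch and green blocks CCANTG on either strand. AP3 has 3 red blocks, PI and UFO have 1 red and 1 green each, and LFY has none (0).

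The B-class genes rose in the SEP3Δtet lines while LFY fell, and UFO was not called. PI was 1.70-fold higher and AP3 1.26-fold higher in the lines, whereas LFY was 1.66-fold lower, in the authors' deposited table. Calls are genes with an adjusted p under 0.05 by edgeR's quasi-likelihood test over all genes, a share of 11.6% for higher and 5.88% for lower calls across the authors' deposited table. That table holds 1 value per gene for the whole comparison and no value per library. Whether all 3 lines carried each change, and whether the groups overlapped, is therefore unknown. The intervals below were derived from each fold change and its F statistic, treating F as a squared t statistic, and are approximate.

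PI, the partner which AP3 protein needs to enter the nucleus, showed the larger increase of the pair. Its log2 fold change was 0.77 in the authors' deposited table, with an F statistic of 33.3 and an adjusted p of 0.00171 by edgeR's quasi-likelihood test. The approximate 95% interval of the log2 fold change ran from 0.48 to 1.06, or from 1.39-fold to 2.08-fold. The whole of it lies above no change.

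AP3, whose RNA marks the petal and stamen whorls, stood just inside the threshold. Its log2 fold change was 0.33 in the authors' deposited table, with an F statistic of 10.1 and an adjusted p of 0.0469 by edgeR's quasi-likelihood test. The approximate 95% interval ran from 0.10 to 0.56 on the log2 scale, or from 1.08-fold to 1.47-fold. The call was lost when p-values were adjusted only over genes of at least 1 log2 CPM, where the adjusted p was 0.0502 by the same edgeR test. The intervals of AP3 and PI overlap, and the difference between their fold changes was not tested.

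LFY moved the other way. Its log2 fold change was -0.73 in the authors' deposited table, with an F statistic of 26.3 and an adjusted p of 0.00374 by edgeR's quasi-likelihood test. The approximate 95% interval ran from -1.04 to -0.42, so that LFY was between 1.34-fold and 2.06-fold lower in the lines.

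UFO, which is needed with LFY to activate AP3, had a log2 fold change of -0.42 in the authors' deposited table, with an F statistic of 3.46 and an adjusted p of 0.248 by edgeR's quasi-likelihood test. Its approximate 95% interval ran from -0.91 to 0.07. The interval therefore reaches from a level 1.87-fold lower in the lines to one 1.05-fold higher, and the missed call does not show an equal level. In RNA of whole meristems and buds, a different number of cells that express a gene and a different level per cell cannot be told apart, and this holds for all 4 genes.

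**Figure D2:**
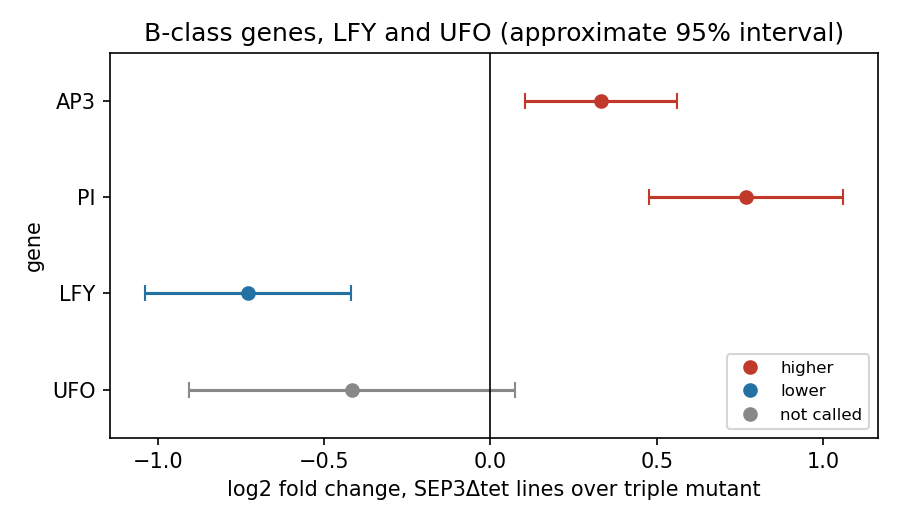
Log2 fold change of AP3, PI, LFY and UFO (SEP3Δtet lines over the triple mutant, x axis) from the authors' deposited table, 1 row per gene, with bars for the approximate 95% interval derived from the F statistic. Red marks higher calls, blue a lower call and grey no call: the intervals of AP3 (0.10 to 0.56) and PI (0.48 to 1.06) lie above 0, that of LFY (-1.04 to -0.42) below it, and that of UFO (-0.91 to 0.07) spans it.

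The genes differed far more in level than in their change between genotypes. Divided by exon length, the average abundance over all libraries of the authors' fit was 123.0 CPM per kb for AP3 and 122.9 for PI. The partners of the heterodimer were thus at almost the same level per length, above 95.8% of the genes with an exon length. LFY averaged 14.9 CPM per kb, at percentile 57.1, and UFO 1.78 CPM per kb, at percentile 12.8. The order of the levels was AP3 and PI, then LFY, then UFO, and no spread over libraries is available for it. Before division by length, the averages in the authors' deposited table were 7.22 log2 CPM for AP3, 7.33 for PI, 4.36 for LFY and 1.44 for UFO.

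The share of genes called varied with abundance, so each of the 4 genes was placed among the 500 genes nearest to it in average log2 CPM, as a description. Around PI, 4.80% of those genes were higher and 12.6% lower, and the fold change of PI exceeded 97.2% of theirs. Around AP3 the shares were 3.80% and 12.2%, and the fold change of AP3 exceeded 94.2% of theirs. Both B-class genes thus rose in a range of abundance where lower calls outnumbered higher ones. Around LFY, 11.2% were higher and 6.40% lower, and 0.80% had a lower fold change than LFY. Around UFO, 23.4% were higher and 2.20% lower, and 10.6% had a lower fold change than UFO. The standard error implied by F was 0.10 for AP3, 0.13 for PI, 0.14 for LFY and 0.22 for UFO on the log2 scale. Among the 500 neighbours in abundance those errors stood at percentiles 55.0, 79.6, 75.6 and 3.40, so that the implied error of UFO was smaller than that of most genes of like abundance.

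**Figure D3:**
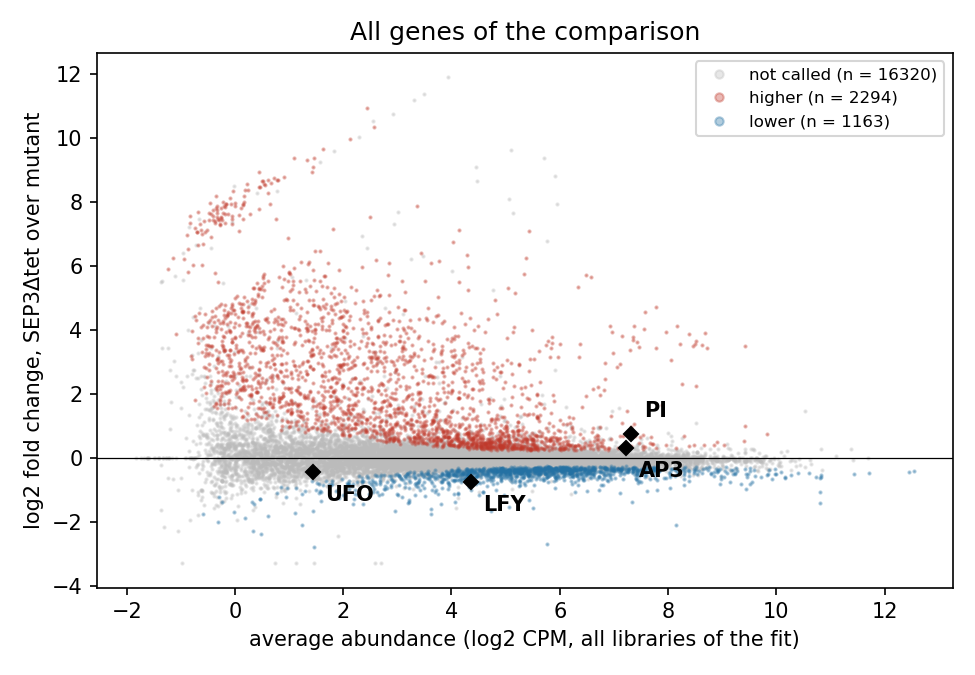
Log2 fold change (SEP3Δtet lines over the triple mutant, y axis) against average log2 CPM (x axis) for the 19777 genes of the authors' deposited table, with 2294 higher calls in red, 1163 lower calls in blue and the rest in grey. Black diamonds mark PI and AP3 at 7.33 and 7.22 log2 CPM above 0, LFY at 4.36 and UFO at 1.44 log2 CPM below 0.

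Of the nearest annotated neighbours, none of the 5 with a row was called by edgeR's test, and 0 had an unadjusted p under 0.05. Over all genes 17.5% were called in either direction, so 0 calls among 5 genes says little about these loci. WRI1 and emb1967, on either side of AP3, had log2 fold changes of 0.07 and -0.15 in the authors' deposited table and were not called (adjusted p of 0.751 and 0.229 by edgeR's test). GUT1 and AT5G61865, on either side of LFY, stood at 0.16 and 0.23 in the authors' deposited table and were not called (adjusted p of 0.280 and 0.315 by edgeR's test). AT1G30960 ends 43 bases from the end of UFO on the opposite strand and is more abundant, averaging 4.14 against 1.44 log2 CPM (the authors' deposited table). Whether counting used strand was not stated in those sources, so reads running past that end cannot be told apart from UFO reads. The neighbour itself had a log2 fold change of 0.20 and was not called (adjusted p of 0.274 by edgeR's test on the authors' deposited table). The nearest annotated features on either side of PI are non-coding RNAs with no row in the table.

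The other genes of the pathway were taken as 5 lists: targets of LFY, regulators of LFY, partners and regulators of UFO, regulators of AP3 and PI, and targets of AP3 and PI. Of 47 distinct genes with a row, 3 were higher, 11 lower and 33 not called, with a median log2 fold change of -0.14 in the authors' deposited table. Over all genes of that table the median was -0.0009 and 17.5% were called in either direction, 11.6% higher and 5.88% lower. Those shares varied with abundance, as given above, and the lists were not matched for it. The lists were also chosen with earlier results of these data known, so their shares called are a description only. SEP1, SEP2 and SEP3, which are mutated or added by design, are among the 47; without them 2 of 44 were higher and 11 lower.

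Regulators of LFY included 1 that rose and 4 that fell, of 14 with a row (median log2 fold change -0.09). Calls made up 35.7% of this list, against 17.5% over all genes. ARF5, the auxin response factor MONOPTEROS that activates LFY in young primordia, fell by 0.50 on the log2 scale in the authors' deposited table (adjusted p of 0.00770 by edgeR's test). AIL6, an AINTEGUMENTA-like activator of LFY, fell by 0.36 in the authors' deposited table (adjusted p of 0.0323 by edgeR's test), while ANT itself stood at -0.10 (adjusted p of 0.386). SPL9, which promotes the floral transition, fell by 0.42 and BLH8, the BELL homeodomain gene POUND-FOOLISH, by 0.49 in the authors' deposited table (adjusted p of 0.00281 and 0.0288 by edgeR's test). SOC1, a MADS gene that activates LFY, rose by 0.66 in the authors' deposited table (adjusted p of 0.00237 by edgeR's test). Its partner AGL24 stood at 0.05 and TFL1, which opposes LFY in the inflorescence meristem, at 0.60, neither of them called there (adjusted p of 0.888 and 0.418 by edgeR's test). MYB33, a GAMYB-like gene known to activate LFY, stood at 0.31 in the authors' deposited table with an unadjusted p of 0.0361 and was not called (adjusted p of 0.135 by edgeR's test). The Polycomb genes CLF (-0.06), LHP1 (-0.07) and EMF1 (-0.26) were not called in the authors' deposited table. SPL3 had no row.

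Targets of LFY outside the B class included 0 that rose and 2 that fell, of 9 (median -0.22), or 22.2% called against 17.5% over all genes. The list was not split by whether LFY activates or represses a gene, so its median does not measure LFY activity. AP1, a direct LFY target that shares floral meristem identity with it, fell by 1.00 on the log2 scale in the authors' deposited table (approximate 95% interval -1.18 to -0.82). PID, a kinase gene of auxin transport, fell by 0.38 there (adjusted p of 0.0151 by edgeR's test). The LFY targets LMI1 (-0.46) and MYB17 (-0.22), both meristem identity genes, had an unadjusted p of 0.0213 and 0.0217 in the authors' deposited table and were not called (adjusted p of 0.0937 and 0.0950 by edgeR's test). AG, the C-class target, stood at 0.16 and CAL, the AP1 paralog, at -0.33 in the authors' deposited table, neither called. PI and AP3, also LFY targets, thus differed in sign from AP1 and PID; no test of that difference was made.

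Of the UFO partners and regulators, 0 rose and 1 fell of 8 with a row (median 0.07). Calls made up a smaller share of this list than the 17.5% over all genes. The SCF ubiquitin ligase genes that UFO protein works with, ASK1 (0.13), ASK2 (-0.03), CUL1 (0.08) and RBX1A (0.16), were not called in the authors' deposited table. Their approximate 95% intervals lay between -0.24 and 0.35 on the log2 scale. BOP2, a BTB-domain cofactor gene of organ boundaries, fell by 0.47 in the authors' deposited table (adjusted p of 0.00386 by edgeR's test), while its paralog BOP1 stood at 0.06 (adjusted p of 0.904); the difference between them was not tested. STM, the meristem homeobox gene that acts upstream of UFO, had a value of -0.16 in the authors' deposited table, with no call. PUCHI had no row.

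Regulators of AP3 and PI moved in both directions: 2 rose and 4 fell of 15 with a row (median -0.21). Called genes, SEP3 among them, made up 40% of the list, against 17.5% over all genes. SEP3, the gene of the transgene, was higher by 2.27 on the log2 scale in the authors' deposited table. SEP4, the SEPALLATA gene left intact in both genotypes, fell by 0.71 in the authors' deposited table (adjusted p of 0.00444 by edgeR's test). AP1, which activates the B-class genes with UFO and LFY, fell as given above, and AP2, an A-class gene, fell by 0.54 in the authors' deposited table (adjusted p of 0.00624 by edgeR's test). DRNL, an AP2-type gene of organ founder cells, fell by 1.35 in the authors' deposited table at an average of -0.25 log2 CPM (adjusted p of 0.0226 by edgeR's test). SUP, a zinc finger gene that keeps B-class expression out of the carpel whorl, was higher by 1.36 in the authors' deposited table at an average of 0.63 log2 CPM (adjusted p of 0.0481 by edgeR's test). LUG (-0.21) and SEU (-0.14), corepressor genes, and SYD (-0.30) and BRM (-0.003), chromatin remodelling genes needed for B-class activation, were not called in the authors' deposited table.

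Among genes downstream of AP3 and PI, 1 rose, 1 fell and 5 did not pass, of 7 with a row (median -0.17). The share called was 28.6%, against 17.5% over all genes. GNC, a GATA factor gene of chlorophyll synthesis that AP3 and PI are known to repress, fell by 0.99 on the log2 scale in the authors' deposited table (approximate 95% interval -1.51 to -0.46, adjusted p of 0.0155 by edgeR's test). Its paralog GNL, also repressed by them, stood at -1.40 in the authors' deposited table, averaged -0.26 log2 CPM and missed the threshold (unadjusted p of 0.0294, adjusted p of 0.117 by edgeR's test). Of the BANQUO helix-loop-helix genes, also known as B-class repressed targets, PRE1 (BANQUO1, -0.36) and PRE2 (BANQUO2, -0.17) missed the threshold in the authors' deposited table, and BNQ3 (BANQUO3) had no row. NAP, a NAC gene that AP3 and PI activate, stood at 0.61 in the authors' deposited table with a wide interval of -0.50 to 1.71 and was not called (adjusted p of 0.476 by edgeR's test). SUP, which is in this list too, is the gene that rose, and CRC, a carpel gene repressed by the B class, stood at 0.24 in the authors' deposited table (adjusted p of 0.495 by edgeR's test).

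**Figure D4:**
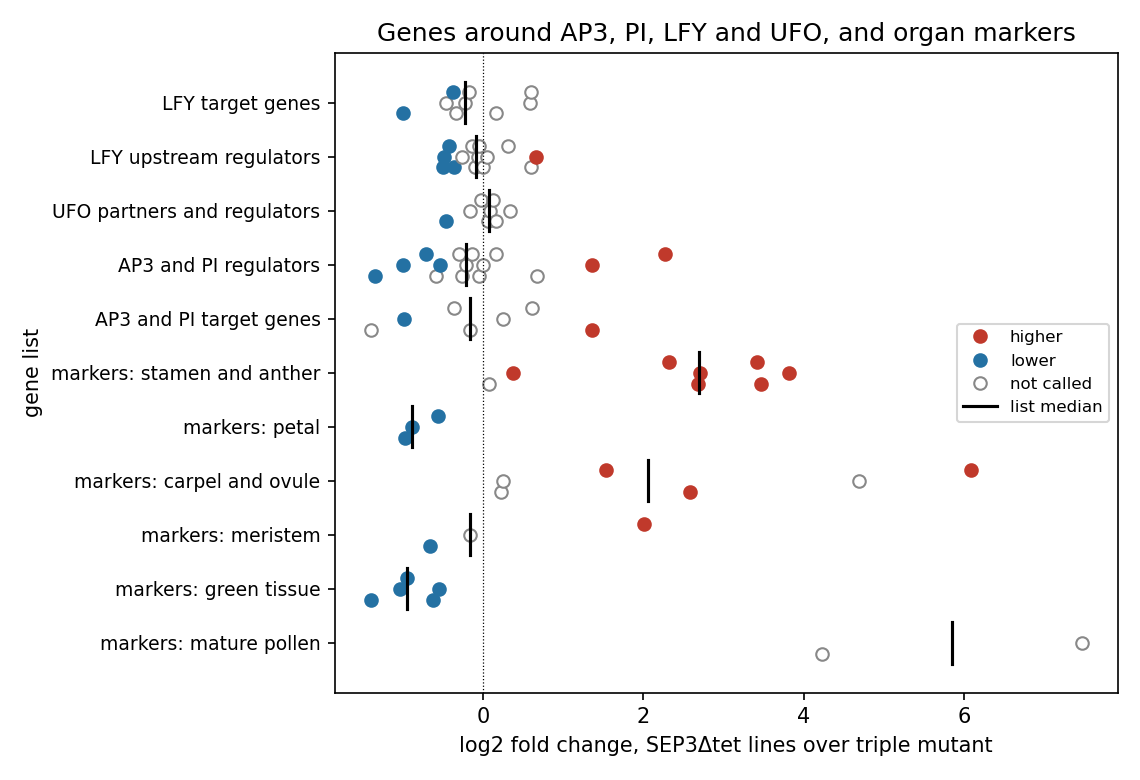
Log2 fold change (SEP3Δtet lines over the triple mutant, x axis) of each gene with a row in 5 pathway lists and 6 organ marker lists (y axis), from the authors' deposited table, with filled points for calls, open points for genes not called and a black line at each list's median. The pathway medians lie between -0.22 and 0.07, the stamen and anther median at 2.70 and the green tissue median at -0.95.

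Organ markers also differed between the genotypes: most stamen markers listed and 3 of 6 carpel and ovule markers were higher. The genes listed as petal markers that had a row were lower. Over all genes 11.6% were higher and 5.88% lower. Of 8 stamen and anther markers 7 were higher and 1 was not called (median log2 fold change 2.70). AMS, a tapetum regulator gene, was 11.1-fold higher in the authors' deposited table. EMS1 was higher by only 0.38 on the log2 scale, and TPD1, the gene not called, stood at 0.08. All 3 genes listed as petal markers with a row were lower (median -0.89): ROXY1 (log2 fold change -0.97), JAG (-0.89) and MYB16 (-0.56) in the authors' deposited table. RBE, the listed gene expressed in petal primordia, had no row. Whether the other 3 genes mark petals alone was not tested, so their fall is not read as a change in petals. Of 6 carpel and ovule markers, from an organ outside the B-class whorls, 3 were higher and 3 not called (median 2.06). Those higher were STK (log2 fold change 6.09), SHP2 (2.58) and SHP1 (1.53) in the authors' deposited table. All 5 green tissue genes were lower (median -0.95). Among meristem markers WUS rose (log2 fold change 2.01) and CLV1 fell (-0.66) in the authors' deposited table, STM was not called and CLV3 had no row. For mature pollen, VGD1 had a log2 fold change of 7.48 and PGA4 one of 4.23 in the authors' deposited table, at unadjusted p of 0.0220 and 0.0213 and adjusted p of 0.0958 and 0.0937 by edgeR's test, so that neither was called. Both averaged under 0 log2 CPM (-0.66 and -0.47 in the authors' deposited table), where fitted folds depend on the prior count, and AGL66 and AGL104 had no row. Fewer markers were called under stricter settings: 0 of the 3 petal and 1 of the 5 green tissue markers by Bonferroni, and 0 of the 3 petal markers with a log2 change of at least 1 required. No marker level per group is available, and the part of organ makeup or bud stage in the changes of AP3, PI and LFY was not tested.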

How the data were processed

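RNA-seq of 3 SEP3Δtet lines, 1 library each, was compared by the authors with the sep1 sep2 sep3 triple mutant. The submitters' processing notes name STAR, featureCounts, edgeR and the TAIR10 build; versions, strand setting, low-count filter and model were not given in the sources used here. Deposited by the authors was 1 table that gives for each gene, per the file headers, the log2 fold change, its F statistic (a score), p-value and adjusted p-value, and the log2 CPM averaged over libraries, which are the columns of edgeR's quasi-likelihood test. Positive values are read as higher in the lines, from the order of the genotypes in the authors' naming. Depth per library is unknown, and p-values measure only the spread between libraries of the fit.

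Deposited adjusted p-values matched a Benjamini-Hochberg adjustment over all 19777 rows. From F and p, 11.85 degrees of freedom were recovered for each of the 4 genes. This number includes what the test borrows from other genes and is not a count of libraries. A standard error is the absolute log2 fold change divided by the square root of F. Code was checked on simulated data. CPM per kb divides 2 to the power of the average log2 CPM by the union of RefSeq exons; 19471 genes matched the annotation. TAIR10.1 coordinates and sequences are from RefSeq, not from the table. Genes, 5 pathway lists and 6 marker lists were chosen with earlier results of these data known; of the lists, all called pathway genes are named and others in part. BNQ3 was first listed under the locus of PRE6, and its RefSeq locus was used instead after the values were seen. Likeness of pattern was not ranked, since there is 1 comparison. Python 3.11.15, scipy 1.17.1 and pandas 2.3.3 were used. Alternatives were adjusted p of 0.01, Bonferroni, minimum abundances, recentring and minimum fold changes.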

Additional observations from a re-analysis of the deposited data

How the results depend on the processing

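Recentring is the alternative that could change a fold change, while the others act on thresholds or p-values. It subtracts a median of -0.04, and the smallest change among AP3, PI, LFY and UFO was 0.33 (AP3), so no direction could have reversed. PI and LFY kept their calls except under Bonferroni, where the adjusted p of PI, LFY and AP3 was 1. The call of AP3 was lost at an adjusted p threshold of 0.01 (0.0469), over genes of at least 1 log2 CPM (0.0502) or 4 log2 CPM (0.0558), and when a log2 change of 0.5 was required (0.33). Recentring on genes of at least 4 log2 CPM (median -0.04) changed none of the 4 calls. UFO has no value at 4 log2 CPM or more, because a minimum abundance leaves out every gene that averages below it. Counts under such a minimum therefore fall where a called gene is left out, as GNC (3.71) and SUP (0.63) were at 4 log2 CPM. Over all genes, higher and lower calls numbered 1482 and 419 at 0.01, 481 and 14 by Bonferroni, and 707 and 861 at 4 log2 CPM or more. Lower calls numbered 460 with a log2 change of at least 0.5 and 74 with at least 1. Called LFY targets fell from 2 to 1 at 0.01, by Bonferroni and with either minimum change. LFY regulators fell from 5 to 3 at 0.01, 0 by Bonferroni, 1 at a minimum change of 0.5 and 0 at 1. UFO partners and regulators fell from 1 to 0 by Bonferroni and with either minimum change. AP3 and PI regulators fell from 6 to 1 by Bonferroni. AP3 and PI targets fell from 2 to 0 at 0.01, by Bonferroni and at 4 log2 CPM, and to 1 at 1 log2 CPM and at a minimum change of 1; with PRE6 in the place of BNQ3, a setting chosen after seeing the data, 3 were called. Of 73 alternatives for these results 42 kept their side of the threshold or stayed within 1.5 times the count. Some of those kept could not fail: UFO, not called at 0.05, could not be called at 0.01, by Bonferroni or with a minimum change. The count of those kept is therefore no measure of stability. Of 42 alternatives for the marker lists 12 moved further: by Bonferroni stamen markers fell from 7 to 3, carpel from 3 to 1, green tissue from 5 to 1, petal from 3 to 0 and meristem from 2 to 0. At 4 log2 CPM stamen markers fell to 4, carpel to 0, petal to 1 and meristem to 1. The called markers lost there average below 4 log2 CPM, such as STK (2.85) and WUS (2.69), and were left out. With a minimum change of 1 green tissue fell to 2, petal to 0 and meristem to 1. No paired analysis was possible because the result comes from the authors' table with no value per library, and for the same reason leaving out each line in turn was not run.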
